A study of Mus musculus with 4 samples.

Results

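Genes of the vascular endothelial growth factor (VEGF) and angiopoietin systems were examined in white adipose tissue of mice on a high fat diet (HFD) and of mice on a low fat diet (LFD). The set held 10 genes: the ligands Vegfa, Vegfb, Vegfc, Angpt1 and Angpt2, the receptors Kdr, Flt1, Flt4 and Tek, and the endothelial adhesion molecule Pecam1. Every array probe that was not a control and that carried 1 of these names was taken, which gave 22 of the 41174 probes on the array, for 10 of its 27617 gene symbols. Of these 22 probes, 20 passed the filter on dim probes and were tested, beside 26054 tested probes in all. The mice were female C57BL/6, a standard inbred laboratory strain, placed at 8 weeks of age on the HFD (High fat diet 32) or the LFD (CE2) for 18 weeks. Tissue of 3 mice was mixed for each sample, and each diet had 2 arrays, all on 1 slide. No source used here names the fat depot or says whether the samples of a diet were separate pools, so a p-value here reflects how far these particular arrays scatter, and that scatter may be technical.

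VEGF-A is the principal secreted signal for blood vessel growth, and adipocytes are among its sources in fat, a tissue in which each adipocyte lies close to a capillary. It signals in endothelial cells through the receptor tyrosine kinase VEGFR2, the product of Kdr, while VEGFR1, the product of Flt1, binds VEGF-A and VEGF-B tightly and signals weakly. VEGF-C acts on the VEGFR3 receptor, the product of Flt4, which is best known from lymphatic vessels. Angiopoietin-1 activates the receptor Tie2, the product of Tek, to keep vessels quiet, and angiopoietin-2 mostly opposes it.

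Levels are given on a log2 scale as processed spot signal over the 75th percentile of that array, so a difference of 1 between diets is a 2-fold difference. Levels of different probes are not comparable, and probes of 1 gene are not replicates. A probe was called where limma's adjusted p was under 0.05 after Benjamini-Hochberg adjustment across every probe tested.

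The HFD arrays had 27251 and 21312 probes well above background and the LFD arrays 26420 and 27937, so HFD replicate 2 had the fewest. The median signal of its negative control spots was also the highest, with 119.2 beside 106.2 on the other HFD array, against 72.6 and 96.5 on the LFD arrays. Log2 signals over all tested probes correlated across probes with r = 0.992 between the HFD arrays, 0.989 between the LFD arrays and 0.965 to 0.971 between diets, and probes are not independent replicates.

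Vegfa and Vegfb were lower in HFD fat, and none of the other 8 genes passed the test. Of the 20 tested probes, 4 were called lower, 2 of Vegfa and 2 of Vegfb, where 5.27% of all tested probes were called lower. None was called higher by limma, where 5.43% of all tested probes were. At an unadjusted p under 0.05, 8 member probes were lower and 1 was higher, where 16.6% of all tested probes were lower and 17.6% higher. The 4 called probes were 1.70-fold to 2.21-fold lower in HFD. Both HFD arrays lay below both LFD arrays at 9 member probes, against 32.6% of all tested probes, and above them at 4, against 35.3%. Of the 9, Vegfa A_52_P229471 and Angpt1 A_52_P574140 passed the filter through their LFD signal only. Both are also among the 8 that were lower at an unadjusted p. The median change of the 20 probes was -0.09, beside 0.02 over all tested probes. Without Vegfa and Vegfb the median of the remaining 14 tested probes was -0.01, with changes between -0.47 and 0.33.

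The promoter windows of Vegfa, Vegfb and Vegfc are shown because the first 2 genes were called lower and the third was not. Each runs from 250 bases before to 50 after the annotated start, from RefSeq with build GRCm38.p6, and 7 of the 10 members had such an entry. Capitals mark the letters GGGCGG (the GC box), ACGTG and GCGTG (cores of hypoxia response elements) and AGGTCA (a core of nuclear receptor sites), searched on both strands with the promoters in view. The Vegfa window lies at chr17:46032328-46032627 on the minus strand, that of Vegfb at chr19:6987602-6987901 on the minus strand and that of Vegfc at chr8:54077282-54077581 on the plus strand.
Vegfa: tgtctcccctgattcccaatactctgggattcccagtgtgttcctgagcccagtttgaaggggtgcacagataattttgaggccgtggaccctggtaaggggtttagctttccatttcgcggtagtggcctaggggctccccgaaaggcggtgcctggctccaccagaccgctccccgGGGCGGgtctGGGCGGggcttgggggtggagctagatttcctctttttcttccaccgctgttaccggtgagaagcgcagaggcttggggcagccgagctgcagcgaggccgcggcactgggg
Vegfb: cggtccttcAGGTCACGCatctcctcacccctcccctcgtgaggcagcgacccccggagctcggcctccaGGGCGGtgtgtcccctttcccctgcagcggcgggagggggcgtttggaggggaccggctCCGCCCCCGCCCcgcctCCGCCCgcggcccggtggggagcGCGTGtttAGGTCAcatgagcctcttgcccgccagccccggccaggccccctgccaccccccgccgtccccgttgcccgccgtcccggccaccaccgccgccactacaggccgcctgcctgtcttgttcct
Vegfc: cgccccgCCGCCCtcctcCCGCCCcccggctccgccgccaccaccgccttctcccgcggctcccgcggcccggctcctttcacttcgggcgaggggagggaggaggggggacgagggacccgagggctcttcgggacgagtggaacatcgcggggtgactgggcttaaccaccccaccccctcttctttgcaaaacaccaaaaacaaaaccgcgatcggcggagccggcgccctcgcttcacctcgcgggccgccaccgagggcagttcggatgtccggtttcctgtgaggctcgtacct
The Vegfa window held 2 GC boxes, at -72 and -62 from the start, and no match to the other motifs. A second Vegfa window, for another annotated start, held 1 GC box, 1 ACGTG and 1 GCGTG. In the Vegfb window there were 4 GC boxes, 2 GCGTG and 2 AGGTCA, and in the first of the capitalised runs an AGGTCA shares its last letters with a GCGTG of the other strand. Vegfc had 2 GC boxes and no other match. Over all 32851 windows in the table, 35.7% held a GC box, 19.6% ACGTG, 32.4% GCGTG and 16.3% AGGTCA. The G and C content was 62% for Vegfa, 75.3% for Vegfb and 70.3% for Vegfc. A match is a description of letters, and none in a window says only that these letters are not there.

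Vegfa was measured by 4 probes on chromosome 17, minus strand, in the files' build mm9, and all 4 were lower on both HFD arrays than on both LFD arrays. The dimmest of them, A_52_P229471, passed the filter through its LFD signal only. The probe A_51_P482552, at chr17:46155512-46155571 and 1901 bases into the transcript by the files' annotation, read 1.76 and 1.72 on the HFD arrays and 2.73 and 2.86 on the LFD arrays. The diets did not overlap, and the gap was far wider than the spread within a diet. Its change was -1.05 (SE 0.10, 95% interval -1.33 to -0.78, n = 2 per diet, limma adjusted p = 0.0192), which is 2.08-fold lower in HFD. This probe is printed as 10 spots on each array. The single spots ranged over 1.67 to 1.84 on the HFD arrays and over 2.66 to 2.93 on the LFD arrays, so no spot of 1 diet reached the range of the other. The SD of the spots within an array was 0.03 to 0.06, which measures the array and not the animals.

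A_52_P638895, at chr17:46154387-46154446 and nearer the 3' end of the transcript, read 1.98 and 1.77 in HFD and 2.92 and 3.12 in LFD. Its change was -1.14 (SE 0.13, 95% interval -1.51 to -0.78, n = 2 per diet, limma adjusted p = 0.0242), or 2.21-fold lower. The other two Vegfa probes lie further upstream in the transcript and changed in the same direction without passing the test. A_52_P249424, at chr17:46162376-46162435, read -0.29 and -0.45 in HFD and 0.14 and 0.45 in LFD, a change of -0.67 (SE 0.15) with an adjusted p of 0.0638. A_52_P229471, at chr17:46169039-46169098 and nearest the 5' end, was dim: -3.33 and -3.50 in HFD and -2.79 and -2.48 in LFD. It was well above background on 1 of the 2 HFD arrays, its change was -0.78 (SE 0.15, adjusted p = 0.0508), and with normexp background correction this change was -0.27. Most of the Vegfa calls were lost when an array was left out. With each array left out in turn, A_51_P482552 changed by -1.12 to -0.99 and kept its call without LFD replicate 1 only (adjusted p = 0.0491). A_52_P638895 changed by -1.25 to -1.04, with adjusted p between 0.0568 and 0.123. When no filter was set on dim probes, no probe of any gene passed (0 of 41170, with 8107 at an unadjusted p under 0.05), and adjusted p was 0.111 and 0.117 at these 2 probes.

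Vegfb, whose product binds VEGFR1 and neuropilin-1 and has been tied to fatty acid handling in metabolic tissue, was lower at both of its probes. Both lie on chromosome 19, minus strand. A_51_P458168, at chr19:7056962-7057019, read 4.53 and 4.74 in HFD and 5.35 and 5.45 in LFD. The change was -0.77 (SE 0.12, 95% interval -1.09 to -0.44, n = 2 per diet, limma adjusted p = 0.0367), 1.70-fold lower in HFD. A_52_P436628, at chr19:7057245-7057304, read 2.29 and 2.44 in HFD and 3.15 and 3.16 in LFD. Its change was -0.79 (SE 0.10, 95% interval -1.07 to -0.50, adjusted p = 0.0287), 1.73-fold lower. The 2 probes therefore gave nearly the same size of fall, and neither had overlapping diets. With 1 array left out, changes ran from -0.87 to -0.67 at the first and from -0.87 to -0.71 at the second probe, and neither was called without any 1 of the 4 arrays, with adjusted p of 0.063 to 0.145.

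Averaged over its probes before the fit, Vegfa changed by -0.91 (SE 0.13, adjusted p = 0.0335) and Vegfb by -0.78 (SE 0.11, adjusted p = 0.0329). The other 8 genes were not called in that fit, where 945 of all 17736 genes were called lower and 991 higher.

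Vegfc was the 1 ligand that read higher on both HFD arrays than on both LFD arrays. Its probe, at chr8:55271533-55271592 on the plus strand, read 0.97 and 1.09 in HFD and 0.71 and 0.70 in LFD. The diets did not overlap, yet the change of 0.32 (SE 0.10, 95% interval 0.05 to 0.59) had an adjusted p of 0.108 and was not called.

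**Figure D1:**
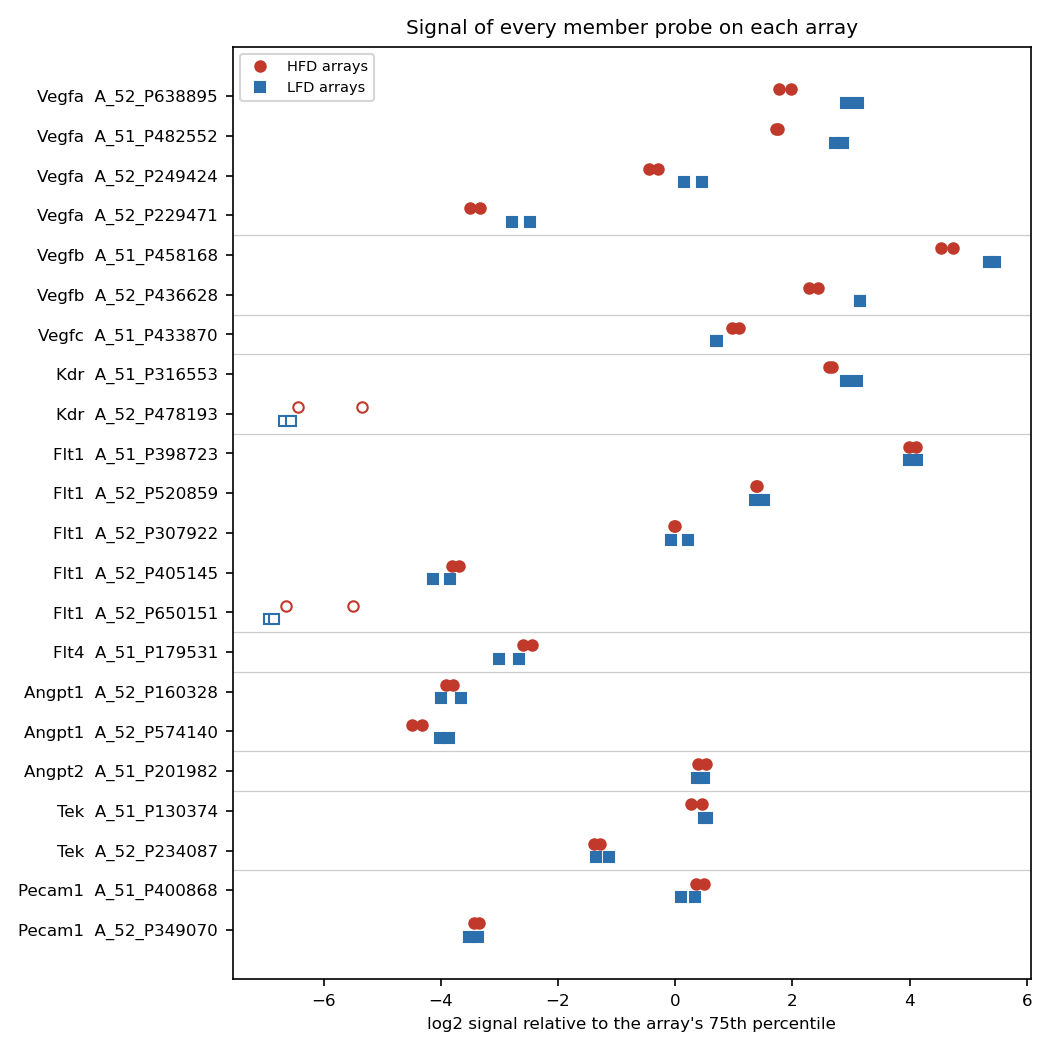
Each row is a member probe and each symbol an array, with the HFD arrays (red circles) drawn above the LFD arrays (blue squares); the horizontal axis is log2 signal over the 75th percentile of the array, and open symbols are the 2 probes that were not tested. The HFD points of the 4 Vegfa and 2 Vegfb probes lie left of the LFD points, while those of Flt1, Angpt2 and Tek lie close to or among them.

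Among the receptors, 8 of 10 probes were tested, none was called (1 lower at an unadjusted p under 0.05, beside the 16.6% of all tested probes), and their changes had a median of -0.07. Kdr, the main signalling receptor for VEGF-A, was read by A_51_P316553 at chr5:76329309-76329368, printed as 10 spots. It gave 2.67 and 2.62 in HFD and 2.92 and 3.10 in LFD, lower on both HFD arrays. The change of -0.36 (SE 0.11, 95% interval -0.66 to -0.06) had an adjusted p of 0.108. It passed the threshold in 1 of 15 other settings, eBayes with trend and robust options, at an adjusted p of 0.0473. The second Kdr probe, A_52_P478193, was not well above background on any array and was not tested.

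Flt1 had 5 probes on chromosome 5, of which 4 were tested and none was called. The brightest, A_51_P398723 at chr5:148373791-148373850, read 3.99 and 4.11 in HFD and 3.99 and 4.12 in LFD. The diets overlapped completely, and the change was -0.003 with a 95% interval of -0.30 to 0.29. A_52_P520859, which lies beside it, changed by -0.05 (interval -0.33 to 0.23), and A_52_P307922, further upstream, by -0.09 (interval -0.45 to 0.28). A dimmer probe, A_52_P405145, read -3.81 and -3.69 in HFD and -4.14 and -3.84 in LFD, a change of 0.24 with an adjusted p of 0.289. That change was 0.046 with quantile normalization, 0.094 without LFD replicate 1 and 0.394 without LFD replicate 2. Flt1 also makes a shortened, secreted form that holds VEGF-A away from cells, and the files do not say which form a probe reads.

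Flt4, the receptor for VEGF-C, was dim, with -2.59 and -2.44 in HFD and -3.01 and -2.67 in LFD. Its probe at chr11:49465646-49465705 was higher on both HFD arrays, and the change of 0.33 (SE 0.16, 95% interval -0.10 to 0.75) was not called (adjusted p = 0.220). Leaving out LFD replicate 1 gave a change of 0.157, and leaving out LFD replicate 2 gave 0.494.

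The angiopoietin ligands and their receptor showed no call. Angpt2, at chr8:18691458-18691517, read 0.40 and 0.53 in HFD and 0.37 and 0.48 in LFD, with overlapping diets and a change of 0.04 (95% interval -0.26 to 0.33). Angpt1 was near the limit of detection. Its probe A_52_P160328, at chr15:42258569-42258628, read -3.91 and -3.79 in HFD and -3.66 and -4.00 in LFD, a change of -0.02 with an interval of -0.44 to 0.40. The other Angpt1 probe, A_52_P574140, read -4.5 and -4.32 in HFD and -3.86 and -4.02 in LFD. On neither HFD array did it stand well above background, so the change of -0.47 (adjusted p = 0.0816) has no firm size, and with normexp it was 0.17.

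Tek was read by 2 probes. A_51_P130374, at chr4:94540861-94540919, gave 0.28 and 0.46 in HFD and 0.50 and 0.54 in LFD, a change of -0.15 (95% interval -0.45 to 0.15). A_52_P234087, at chr4:94408487-94408546, gave -1.39 and -1.29 in HFD and -1.13 and -1.35 in LFD, a change of -0.10 (interval -0.43 to 0.23). These intervals leave room for modest changes in either direction, so the data do not show that the genes were alike in both diets.

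**Figure D2:**
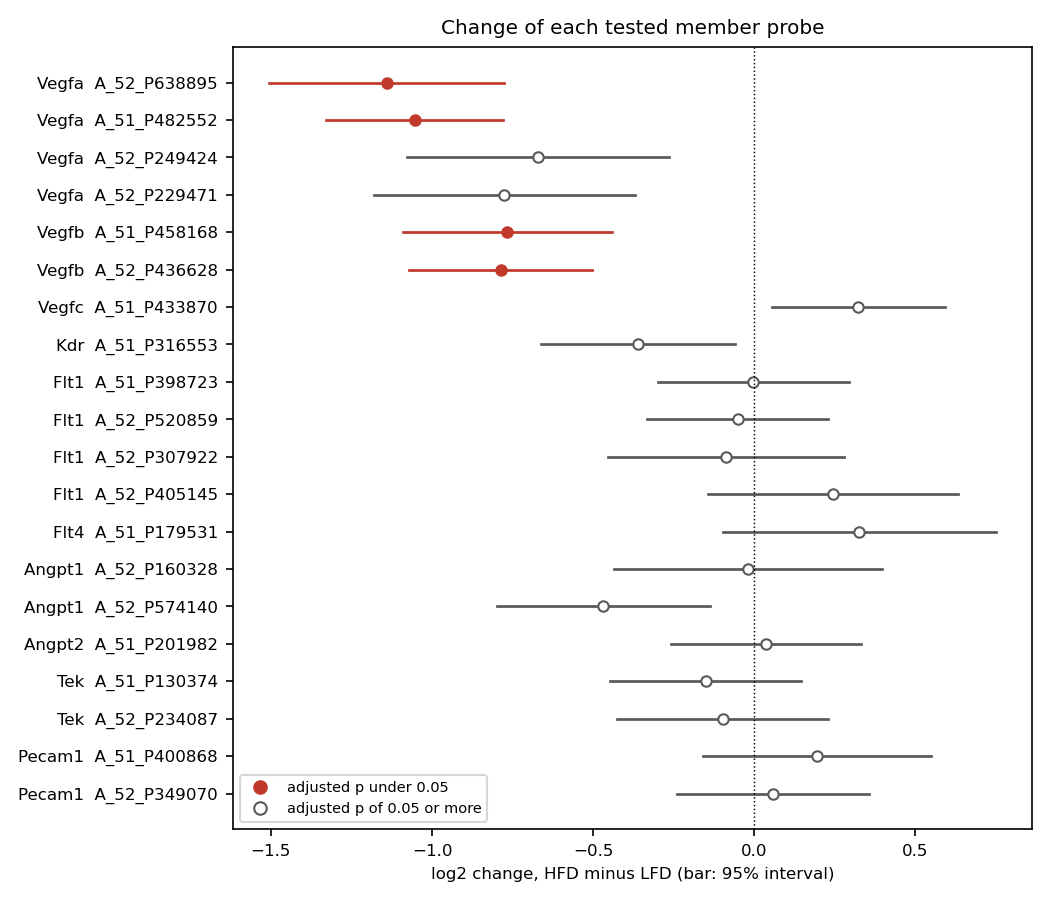
Points are the log2 change (HFD minus LFD) of each tested member probe and bars its 95% interval, with filled red points for an adjusted p under 0.05. The 4 filled points are 2 probes of Vegfa and 2 of Vegfb, between -1.14 and -0.77.

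Pecam1 encodes CD31, an adhesion molecule of endothelial junctions that platelets and leukocytes carry too. A_51_P400868, printed as 10 spots, read 0.35 and 0.49 in HFD and 0.35 and 0.11 in LFD, a change of 0.19 (95% interval -0.16 to 0.55, adjusted p = 0.344). LFD replicate 2 was the low array, and LFD replicate 1 lay just below HFD replicate 1. This probe spans 1854 bases of the genome, at chr11:106542389-106544242 on the minus strand, although it is 60 bases long, the layout of a probe across a splice junction. It is printed here as the probe on which the Pecam1 reading rests.
Pecam1 A_51_P400868: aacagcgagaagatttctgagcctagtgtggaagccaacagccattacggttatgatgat
The second probe that carries the name, A_52_P349070, lies at chr11:106543058-106543117, between the ends of the first, and its description in the files names another product, a disintegrin and metalloprotease. It was dim, with -3.43 and -3.35 in HFD and -3.53 and -3.36 in LFD, and changed by 0.06 (adjusted p = 0.736).

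**Figure D3:**
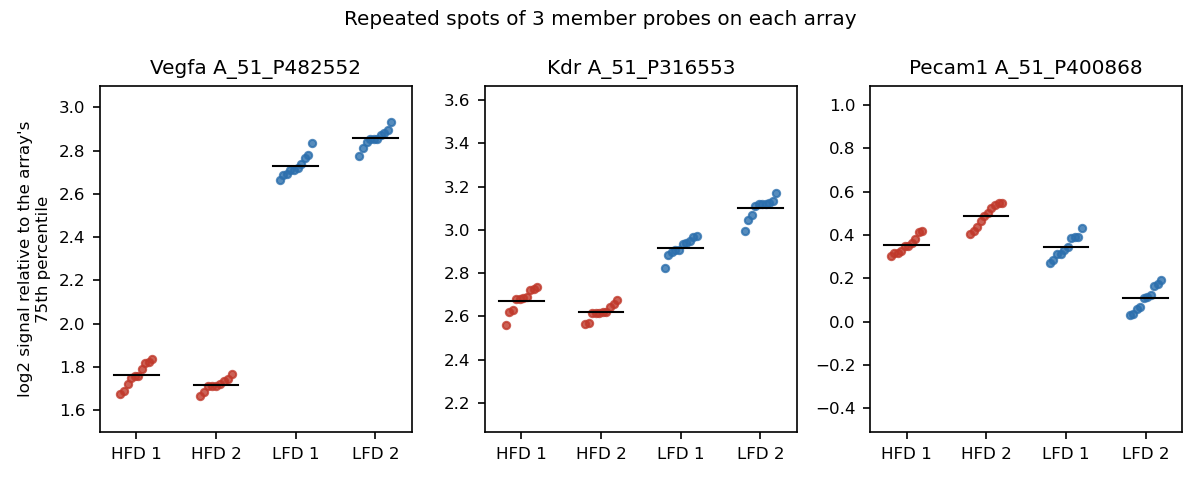
Each point is 1 spot of a probe that is printed 10 times on an array, sorted by value within the array, and black bars are means; the vertical axes are log2 signal over the 75th percentile of the array and cover the same height. Spots of Vegfa separate the diets, those of Kdr lie lower in HFD with a smaller gap, and those of Pecam1 on LFD replicate 1 overlap the HFD arrays.

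In bulk tissue, fewer cells of a type and less RNA per cell cannot be told apart. Blood endothelium markers were therefore read beside the members. Of 26 markers 25 were tested, and their median change was 0.13. Plvap, a protein of capillary fenestrae, rose by 0.70 (adjusted p = 0.0472), a call lost with median scaling (0.62, adjusted p = 0.0615), and Tspan7, a tetraspanin, fell by 0.70 (adjusted p = 0.0317). These 2 were the only markers called. The shares of genes called, at the brightest tested probe of each, were 5.75% higher and 5.61% lower over all 17736 genes, and at an unadjusted p under 0.05 they were 18.2% higher and 16.7% lower. Among the rest, Eng, a co-receptor of TGF-beta, changed by 0.38 and Emcn, a sialomucin of capillaries and veins, by -0.39, and neither was called. Summed over the 25 markers, signal relative to the 75th percentile was 179.4 and 202.4 in HFD and 182.6 and 174.7 in LFD, so the sums overlapped. Such a sum, here and for the lists below, is led by its brightest probes and does not weigh the markers evenly.

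Set against the median of these 25 markers on the same array, the difference (HFD minus LFD) was -1.34 and -1.43 for the called Vegfa probes and -1.06 and -1.08 for the Vegfb probes. It was -0.65 for Kdr, 0.04 for Vegfc and -0.29 for the brightest Flt1 probe. The marker median on an array is the level of 1 marker. It was Rasip1 on the HFD arrays (2.01 and 2.09) and on LFD replicate 2 (1.79), and Sox18 on LFD replicate 1 (1.74). This median was 0.29 higher in HFD, beside a median of 0.13 among the changes of the single markers. Falls set against it therefore come out wider than against the marker mean, which was 0.11 higher and was added after seeing the data. Against the marker mean the values were -1.16 and -1.25 for Vegfa, -0.875 and -0.895 for Vegfb, -0.47 for Kdr, 0.22 for Vegfc and -0.11 for Flt1. These differences are descriptions, and no test was run on them. The members were not set against markers of adipocytes, which are among the sources of VEGF-A.

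Lymphatic endothelium, where Flt4 is best known, had 5 of 7 markers tested, all with negative changes and a median of -0.83. Lyve1 and Reln read lower on both HFD arrays, while the diets overlapped at Pdpn, Ccl21a and Mmrn1. Ccl21a read 0.87 and 1.76 in HFD, and 2.23 and 0.87 on LFD replicates 1 and 2. Mmrn1 read -3.00 and -2.04 in HFD, and -1.26 and -2.06 on LFD replicates 1 and 2. Lyve1, a hyaluronan receptor shared with some macrophages, was the 1 called (-0.83, SE 0.13, adjusted p = 0.0352). Prox1, the transcription factor that defines these cells, did not pass the filter on dim probes. The summed marker signal was 3.73 and 5.74 in HFD and 8.61 and 5.29 in LFD, which overlapped. Pericyte and smooth muscle markers had no call among 13 of 15 tested (1 higher at an unadjusted p), with a median of -0.03.

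Among markers of other cells, those of macrophages and mesothelium held most of the calls. Macrophage markers were called higher at 9 of 12, with a median of 1.0 and a summed signal of 314.6 and 337 in HFD and 212.8 and 191.6 in LFD. Mesothelium markers were called lower at 11 of 12, with a median of -1.89 and a summed signal of 14.9 and 11.6 in HFD and 42.8 and 45 in LFD. Adipocyte markers had 1 of 12 called, Retn (-0.90), and a median of -0.21. Their summed signal was 1511 and 1619 in HFD and 1604 and 1765 in LFD, which overlapped. Their median level on an array was 6.11 and 6.14 in HFD and 6.42 and 6.56 in LFD, so lower on both HFD arrays. At an unadjusted p under 0.05, 5 of them were lower and 1 was higher, beside 16.7% and 18.2% of all genes. Slc2a4, picked after its value was seen, changed by -1.28 and was not called (limma adjusted p = 0.058). Lep, which encodes leptin and was singled out after its value was seen, had the largest change of that list in size and in the other direction. It read 5.72 and 5.76 in HFD and 2.81 and 4.32 in LFD, a change of 2.18 (SE 0.53) that was not called (adjusted p = 0.0729). Its change was 1.43 without LFD replicate 1 (adjusted p = 0.0428) and 2.93 without LFD replicate 2 (adjusted p = 0.0437), and it was called in both. Fibroblast markers had 2 of 12 called lower, Pdgfra and Dpp4, with a median of -0.02 and a summed signal of 444.6 and 424.4 in HFD and 479.2 and 425.7 in LFD. Of 6 platelet markers tested 1 was called higher, Treml1, and of 12 lymphocyte markers tested none was called (2 higher at an unadjusted p). The summed lymphocyte marker signal was 3.56 and 5.72 in HFD, and 10.77 and 2.75 on LFD replicates 1 and 2. The LFD arrays thus lay on either side of both HFD arrays. The part of these shifts in the Vegfa and Vegfb result was not tested.

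The wider vascular genes were counted by list, each gene by its brightest tested probe. For every list below, the shares over all genes were 5.75% called higher and 5.61% lower. At an unadjusted p under 0.05 they were 18.2% and 16.7%. Calls in these lists, as in the marker lists, were often lost when an array was left out: of 39 called genes followed through, 39 lost their call without HFD replicate 1, 39 without HFD replicate 2, 25 without LFD replicate 1 and 24 without LFD replicate 2. Partners of both systems, 15 genes with further ligands, co-receptors and angiopoietin-like proteins, had a median change of 0.51, beside 0.02 over all genes. Of these genes 4 were called higher and none lower (7 higher and 1 lower at an unadjusted p). Svep1, a large matrix protein that binds Tie1, read 4.18 and 4.24 in HFD and 3.00 and 2.69 in LFD (change 1.37, adjusted p = 0.0208). Angptl4, an inhibitor of lipoprotein lipase, read 7.60 and 7.82 in HFD and 6.80 and 6.38 in LFD (change 1.12, adjusted p = 0.0395). Nrp2, a co-receptor for VEGF-C, read 3.26 and 3.34 in HFD and 2.82 and 2.70 in LFD (change 0.54, adjusted p = 0.0488). Angptl7, dim and well above background on 1 of 2 HFD arrays, changed by 0.62 (adjusted p = 0.0454). Under median scaling Angptl4 and Nrp2 lost their calls (1.03, adjusted p = 0.0523, and 0.45, adjusted p = 0.0769), and Nrp2 also did with quantile normalization (0.46, adjusted p = 0.0603), as did Angptl7 (0.46, adjusted p = 0.0663). Angptl7 was also lost with normexp (0.32, adjusted p = 0.0866) and with trend and robust options (adjusted p = 0.102).

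The other VEGF-family ligands of this list and the co-receptor Nrp1 were not called. Pgf, placental growth factor and a ligand of VEGFR1, read -1.68 and -1.52 in HFD and -2.13 and -2.03 in LFD (change 0.48, adjusted p = 0.0665). Pgf passed with the filter set at well above background on all 4 arrays (adjusted p = 0.0413). Figf, which encodes VEGF-D, changed by -0.08, and Nrp1, a co-receptor for VEGF-A, by 0.07 (-0.014 with median scaling) with tested probes of opposite sign. These genes outside the naming rule were chosen for their place in the pathway.

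Genes of tip and stalk cells, the leading and following cells of a vessel sprout, had 1 of 20 called higher and 2 lower, with a median of 0.02. Over all genes 5.75% were called higher and 5.61% lower. Esm1, a proteoglycan of tip cells that VEGF-A is known to induce, read -0.64 and -0.19 in HFD and 0.92 and 0.59 in LFD (change -1.17, SE 0.21, adjusted p = 0.0464). Igfbp3, which binds insulin-like growth factors, changed by -1.03 (adjusted p = 0.0316). Cxcr4, the receptor for Cxcl12 and also carried by leukocytes, changed by 0.58 (adjusted p = 0.0406), a call lost with median scaling (0.50, adjusted p = 0.0535).

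Among 29 genes of VEGF receptor signalling, 2 were called higher and 1 lower, with a median of 0.14. These counts lie near the shares over all genes, 5.75% and 5.61%. Pik3r1, the regulatory subunit of PI 3-kinase, read 0.59 and 0.60 in HFD and 1.89 and 1.89 in LFD (change -1.30, adjusted p = 0.0142). Dok2, an adaptor best known from blood cells, read 4.35 and 4.41 in HFD and 3.23 and 2.94 in LFD (change 1.29, adjusted p = 0.0210). Nras, a small GTPase, changed by 0.54 (adjusted p = 0.0411), and by 0.45 with an adjusted p of 0.0541 under median scaling.

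Other angiogenic ligands and receptors had 4 of 25 tested genes called lower and none higher (8 lower and 4 higher at an unadjusted p), with a median of -0.14. Met, the receptor for hepatocyte growth factor, changed by -1.32 (adjusted p = 0.0146) at its brightest probe, and its 3 tested probes did not share a sign. Sema3c, a secreted semaphorin, changed by -0.84 (adjusted p = 0.0380). Edn1, which encodes the vasoconstrictor endothelin-1, changed by -0.73 (adjusted p = 0.0474), and by -0.41 with normexp (adjusted p = 0.0659). Sema3e, a semaphorin that acts on endothelial Plxnd1, stood well above background on neither HFD array and was at least 1.19-fold lower there (adjusted p = 0.0395), a call lost with normexp (-0.21, adjusted p = 0.332).

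Inhibitors of angiogenesis and genes of the vessel basement membrane had 5 of 20 tested genes called higher and none lower. At an unadjusted p 7 were higher and none was lower, and the median was 0.31. Serpinf1, the anti-angiogenic factor PEDF, which adipocytes secrete, read 5.58 and 5.61 in HFD and 4.55 and 4.495 in LFD (change 1.08, adjusted p = 0.0172). The basement membrane genes among the called ones, Col4a1, Col4a2, Hspg2 and Col18a1, changed by 0.996, 1.14, 0.74 and 0.81. The laminin and nidogen genes Lama4, Lamb1, Lamc1, Nid1 and Nid2 changed by -0.15, -0.17, 0.14, 0.23 and 0.04, and none was called. Bulk tissue does not show which of its cells carried these RNAs, so the genes are not placed on vessels here.

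**Figure D4:**
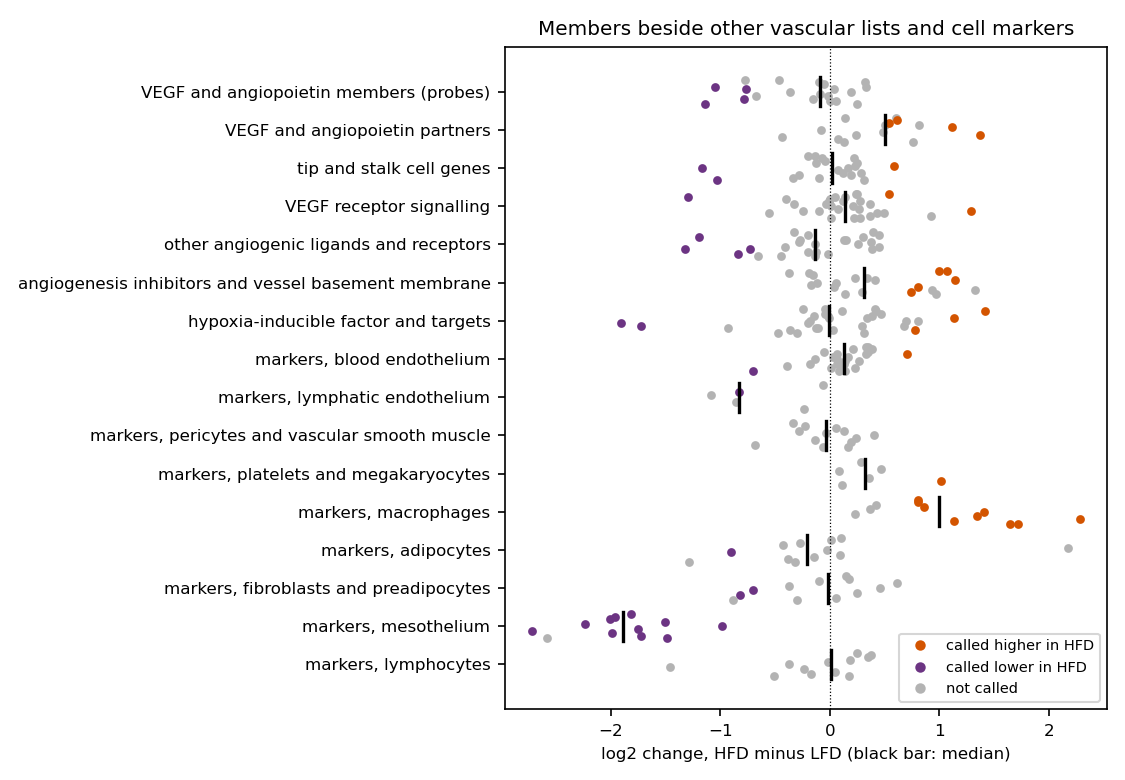
Each point is the log2 change (HFD minus LFD) of a gene's brightest tested probe, or of a member probe in the top row, and black bars are medians; orange and purple points passed the threshold. Macrophage markers lie to the right with a median of 1.0, mesothelium markers to the left at -1.89, and blood endothelium markers near 0 at 0.13.

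Vegfa is also a target of the hypoxia-inducible factors, which raise it when oxygen is low. Of 31 tested genes of that system 3 were called higher and 2 lower, with a median of -0.01. Without adjustment, 8 were higher and 3 lower at p under 0.05, beside 18.2% and 16.7% of all genes. Egln3, a prolyl hydroxylase and target of the factors, read -2.36 and -2.13 in HFD and -0.53 and -0.15 in LFD (change -1.91, SE 0.18, adjusted p = 0.0181). Pdk1, a kinase that restrains pyruvate dehydrogenase, read 0.69 and 0.64 in HFD and 2.32 and 2.46 in LFD (change -1.73, adjusted p = 0.0137). Hmox1, heme oxygenase-1, changed by 1.41 (adjusted p = 0.0210), and Vldlr, a lipoprotein receptor, by 0.78 (adjusted p = 0.0299). Pfkfb4, a regulator of glycolysis, changed by 1.14 (adjusted p = 0.0485), and lost its call with quantile normalization (1.08, adjusted p = 0.0508). Hif1a itself changed by 0.41 without a call (adjusted p = 0.117), and Slc2a1, which encodes the glucose transporter GLUT1, by 0.11.

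**Figure D5:**
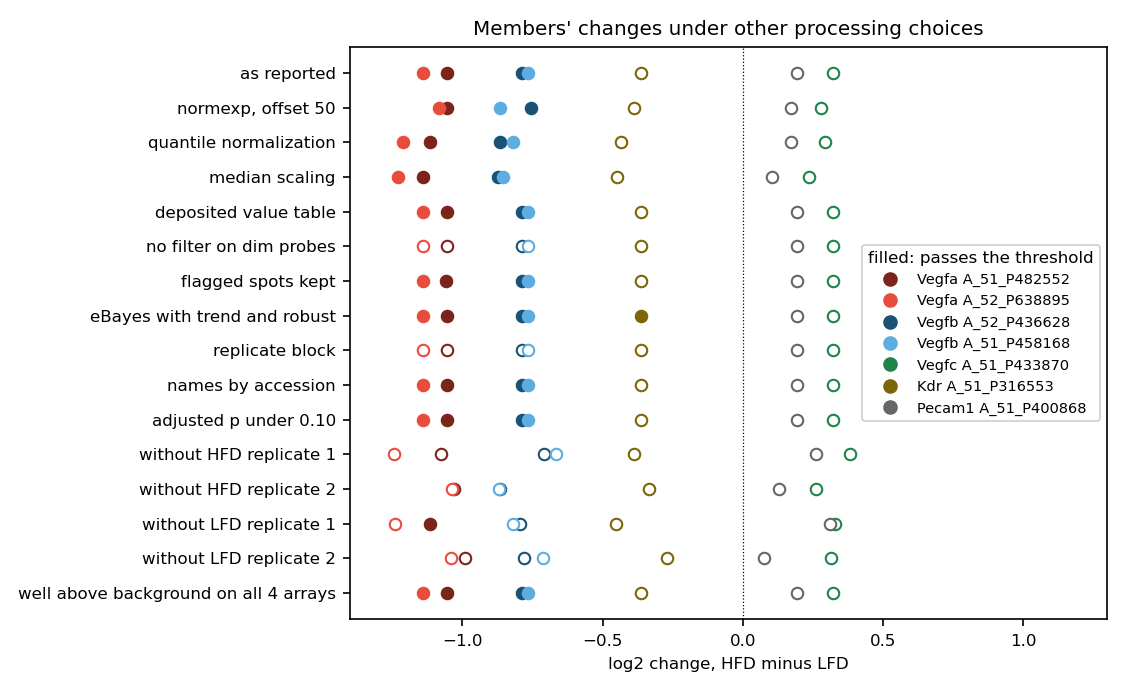
Points are the log2 change (HFD minus LFD) of 7 member probes under each processing setting, filled where the probe passed the threshold of that setting. Vegfa and Vegfb stay left of 0 in every setting and are filled in the reported one and open without the filter on dim probes; a single Vegfa point is filled among the settings that leave out an array.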

How the data were processed

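White adipose tissue RNA (500 ng per sample, per the labels) was measured on 4 one-colour arrays, 2 for HFD and 2 for LFD, grouped by sample titles. The authors deposited scanner output in which spot brightness is a linear intensity. Background subtraction and detrending within the array were done by Feature Extraction, per the file headers (version 11.0.1.1; the submitters' processing notes give 11.5.1.1). A table of values that the authors deposited gives, as a linear ratio, processed signal over the 75th percentile of the array, as a comparison with the scanner signals showed. It is not centred, it follows signal, and its column medians were 0.130 and 0.131 for HFD and 0.117 and 0.127 for LFD.

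Of 45018 spots, 43379 were not controls and made up 41174 probes. On each array 60 to 115 spots carried an outlier flag and were dropped, none was saturated, and the spots of a probe were averaged. The processed signal, scaled to the 75th percentile of its array and put on a log2 scale, was tested two-sided with lmFit and eBayes of limma 3.58.1, under R 4.3.3 with data.table at 1.17.8. The 26054 probes tested stood well above background on every array of 1 diet or of both. Benjamini-Hochberg adjusted p had a threshold of 0.05. Residual degrees of freedom were 2, with a prior of 2.24. The number of arrays limits the precision. The procedure was tested on simulated data.

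Members were matched by the files' gene names. Lists used names updated through RefSeq accessions: 27668 probes matched, of which 1843 got another symbol, and 13506 stayed as named in the files. Coordinates of probes are those of the files (mm9); exon and UTR placement was not analysed here. A dim probe's bound sets the brighter diet's mean against the mean, per array, of the larger of the dim signal and the lowest signal that counted as well above background.

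All members are named. Of each other list, up to 4 called genes per direction by smallest p are named, except that macrophage and mesothelium markers are given by count only. Further genes were named for their place in the pathway after their values were seen. Members and lists were chosen with earlier results of these data known. Alternatives were normexp (offset 50), quantile and median scaling, the deposited table, other filters, flagged spots kept, trend and robust eBayes, the replicate number as a block, names by accession, a threshold of 0.10, the mean of a gene's probes, and each array left out. Deviations of same-numbered arrays correlated over probes at r = -0.005, so no deviation shared by number was seen. This value cannot show whether the samples were paired when they were collected.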

Additional observations from a re-analysis of the deposited data

How the results depend on the processing

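The fall of Vegfa and Vegfb kept its direction in every alternative run, with ranges of -1.14 to -0.99 (A_51_P482552), -1.25 to -1.04 (A_52_P638895), -0.87 to -0.67 (A_51_P458168) and -0.88 to -0.71 (A_52_P436628), and Vegfc (0.24 to 0.38) and Kdr (-0.45 to -0.27) kept theirs. The 4 member probes called lower became 0 without the filter on dim probes, 7 with trend and robust eBayes, 7 at a threshold of 0.10, 2 when counted as genes by the mean of probes, and 0 to 1 with each array left out. No member probe was called higher in any setting. With the replicate number as a block, 0 member probes were called, with adjusted p of 0.0545 and 0.0628 for Vegfa and 0.0631 and 0.0634 for Vegfb, and calls over all probes dropped to 286 higher and 267 lower. Of 39 called list genes followed, 27 lost their call with the block and 39 without the filter on dim probes. Without the block they were 1415 higher and 1373 lower. They were 1178 and 1867 with median scaling, 2249 and 1577 with normexp, 2241 and 1782 with probes well above background on all 4 arrays, 2485 and 2419 with trend and robust eBayes, 3208 and 3126 at 0.10, and 9 to 635 higher and 9 to 422 lower with an array left out. Unfiltered, the median of all probes was 0.19, beside 0.02. With the mean of a gene's probes, 991 of 17736 genes were called higher and 945 lower.

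None of the member probes whose sign turned passed at 0.05 in any setting, and 1 of them, Angpt1 A_52_P574140, passed at 0.10. Angpt1 A_52_P160328 gave 0.24 with normexp and -0.19 to 0.15 with an array left out (0.044 without HFD replicate 1, 0.15 without LFD replicate 1), and A_52_P574140 gave 0.17 with normexp. Angpt2 gave -0.051 with median scaling and -0.029 to 0.10 with an array left out (lowest without HFD replicate 2, and -0.023 without LFD replicate 1). Flt1 A_51_P398723 gave -0.071 to 0.064 with an array left out, positive without LFD replicate 2 and without HFD replicate 1 (0.057). Flt1 A_52_P520859 gave 0.003 with normexp, and -0.127 to 0.023 with an array left out, and A_52_P307922 gave -0.234 to 0.058, both highest without LFD replicate 2. Pecam1 A_52_P349070 gave -0.091 with quantile normalization, -0.031 with median scaling and -0.024 (without LFD replicate 1) to 0.138 with an array left out. Tek A_52_P234087 gave -0.204 to 0.008, the highest without LFD replicate 1. Among list genes, Nrp1, which was not called, gave -0.014 with median scaling and -0.05 (without LFD replicate 2) to 0.198 with an array left out. None of the 39 called list genes changed sign. The causes were not tested. A fit with slide as block could not be made, since 1 slide held every array. Dim probes have little signal over background to measure.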
